A study of Mus musculus with 14 samples.

Results

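The comparison described here sets day 4 against day 3 of factor-driven reprogramming and uses 6 of the 14 libraries of the study. The day 4 libraries were 2 of cells with Cdk9-DN and 2 of cells with the control vector, and day 3 had 1 library of each vector. All were RNA sequencing libraries of mouse embryonic fibroblasts of strain OG2/129SV. The fibroblasts had been transduced with Oct4, Sox2, Klf4 and c-Myc together with Cdk9-DN or a control vector and were kept in embryonic stem cell medium with serum and LIF. Every library used here therefore came from factor-transduced cells, and the day counts from infection. Cdk9 is the kinase that lets paused RNA polymerase II proceed into elongation, and the name Cdk9-DN marks a dominant-negative version of it. The libraries were chosen by their day labels alone. Both vectors were pooled, with the vector as a term of the model, and every gene listed on both days could enter.

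In fibroblasts that receive these factors, the first days bring the loss of somatic genes before endogenous pluripotency genes turn on. The best known early step is a mesenchymal-to-epithelial transition, in which regulators such as Snai1 and Twist2 decline and keratins, claudins and E-cadherin appear. Immediate early genes encode transcription factors of the AP-1 and Egr families that serum, growth factors and stress switch on within minutes. TGF-beta signalling and the coactivator YAP, which acts through TEAD proteins, sustain matrix and contractile genes in fibroblasts.

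Of the 26962 genes listed in any library, 24978 were listed on both days and 21018 in all 6 libraries. Depth implied by the deposited bounds was 9.75 to 12.1 M fragments at day 4 and 11.5 to 13.0 M at day 3. Each of the 6 libraries had 4947 to 5141 genes at 1 FPKM or more (fragments per kilobase of transcript, scaled to depth). A gene that a library does not list has no value there and was not counted as 0. Filtering kept 6266 genes with at least 1 FPKM in at least 2 of the 6 libraries. Of these, 4603 were listed in enough libraries to be tested and 1663 were not. Pou5f1, Klf4, Cdk9, Fos and Cdh1 were listed in 0 of the 14 libraries, so neither the targeted kinase nor E-cadherin was analysed here. The fibroblast identity of the cells could be read from few genes: of 34 matrix genes 15 were listed and 6 tested. Thy1, a fibroblast surface marker, had 73.3 FPKM in the 1 Cdk9-DN library and 81.9 and 83.6 FPKM in the control libraries of day 4, and day 3 did not list it. The endothelial markers Cldn5 and Icam2 were listed at 0 in all 6 libraries, and Sox18 did not exceed 0.263 FPKM. Tek, another endothelial marker, had 5.48 FPKM in the Cdk9-DN library of day 3 and 9.74 FPKM in 1 Cdk9-DN library of day 4. The other libraries of these days did not list Tek, and it could not be tested.

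Differences are given as day 4 minus day 3 on log2(FPKM + 1), which understates the change of genes with few FPKM. Called genes are those with an adjusted p under 0.05 in limma over the 4603 genes tested. The labels do not say whether libraries came from separate cultures, and the p-values then reflect nothing but the spread among these 6. Day 3 and day 4 were separate samples, and any difference in how they were grown, extracted or sequenced cannot be told apart from the day. In bulk RNA, fewer cells of a kind and less RNA per cell cannot be told apart either.

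At day 4, immediate early genes, genes of the TGF-beta and YAP response list and the mesenchymal regulators Twist2 and Snai1 were lower. Krt8, Cldn3 and several secreted Wnt antagonists were higher. Other members of the mesenchymal, epithelial and Wnt lists went the other way, with Meox2 higher and Krt18, Cdh3, Fzd1, Fzd2 and Wnt4 lower. A total of 1060 genes (23.0%) were called, 427 higher (9.28%) and 633 lower (13.8%) at day 4. An unadjusted p under 0.05 was reached by 1775 genes. Quantile normalization moved this balance, with 222 higher (4.82%) and 598 lower (13.0%). Most changes were modest: 160 of the called genes differed by at least 1 on the log2 scale, 89 higher and 71 lower. The day 4 libraries lay all above or all below the day 3 libraries for 1053 of the called genes, while such a gap was seen in 54.0% of all genes tested, upward in 22.2% and downward in 31.7%. The calls as a set depended on having both day 3 libraries in the fit, and a left-out library also takes residual degrees of freedom. Some called genes, such as Ctgf and Fosl1, were listed in 1 day 3 library only. For any gene listed in 1 day 3 library, the difference given is the change with that library's vector alone. Without the control library of day 3, 4 genes were called (969 at an unadjusted p under 0.05), and without the Cdk9-DN library of day 3, 0 were called by limma (853 unadjusted). No gene named below kept its call in either case.

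The libraries of one day were more alike than libraries of different days. Over 436 protein-coding genes with at least 10 FPKM in all 6 libraries, Pearson's r of log2(FPKM + 1) was 0.983 to 0.991 among the day 4 libraries and 0.994 between the day 3 libraries. Across days it was 0.956 to 0.966. These r values are descriptions, since genes are not independent replicates.

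The 12 highest and 12 lowest were named among 332 called genes with a gap between the days and at least 5 FPKM on one of them, and the 12 highest ranged from 1.03 to 2.15. Clec3b, which encodes the secreted plasminogen-binding lectin tetranectin (mm9 chromosome 9, 123060064 to 123066548), had 8.47 FPKM in 1 Cdk9-DN library and 10.2 and 13.998 FPKM in the control libraries of day 4. At day 3 it had 1.30 FPKM with Cdk9-DN and 1.75 FPKM with the control vector. All day 4 libraries that list Clec3b were thus far above both day 3 libraries (difference 2.15, SE 0.178, adjusted p = 0.0155).

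Sfrp4, which encodes a secreted Wnt antagonist (chromosome 13, 19714973 to 19724863), had 9.80 and 12.3 FPKM with Cdk9-DN and 13.7 and 13.8 FPKM with the control vector at day 4. At day 3 it had 2.42 FPKM with Cdk9-DN and 2.72 FPKM with the control vector. It was higher at day 4 by 1.90 (SE 0.113, adjusted p = 0.00847), with no overlap between the days. Sostdc1, which encodes a secreted antagonist of BMP and Wnt signalling (chromosome 12, 37040756 to 37045039), was the most abundant of the 12. It had 31.0 and 33.7 FPKM with Cdk9-DN and 40.0 and 39.8 FPKM with the control vector at day 4, against 13.2 and 16.6 FPKM in the Cdk9-DN and control libraries of day 3. The difference was 1.23 (SE 0.0502, adjusted p = 0.0044).

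Other genes among the 12 highest act at the cell surface or in the nucleus. Cd34, a surface sialomucin of vascular and stromal progenitors, had 28.2, 28.5 and 31.1 FPKM in the 3 day 4 libraries that list it, against 12.8 and 13.3 FPKM at day 3 (difference 1.12). Scara5, a ferritin receptor, rose by 1.03 and Cdh20, a cadherin, by 1.07. Meox2, a mesodermal homeobox factor, had 6.01 to 8.46 FPKM at day 4, against 2.001 and 3.18 FPKM at day 3 (difference 1.21, adjusted p = 0.00847). Hmgn5, a nucleosome-binding protein, rose by 1.48, Socs4, a suppressor of cytokine signalling, by 1.53, and Sgol2, a protector of centromeric cohesin, by 1.04. Ccdc55 and the prolactin family gene Prl8a1 were the remaining members, with differences of 1.18 and 1.07. At day 3, Scara5 and Socs4 were listed in the control library only and Ccdc55 in the Cdk9-DN library only.

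On the lower side, Smoc2, which encodes a matricellular calcium-binding protein (chromosome 17, 14416513 to 14541797), had 1.48 and 1.87 FPKM with Cdk9-DN and 1.37 and 1.33 FPKM with the control vector at day 4. The day 3 libraries had 12.1 FPKM with Cdk9-DN and 11.1 FPKM with the control vector, several times the level of every day 4 library (difference -2.33, SE 0.0949, adjusted p = 0.0044). Cck, which encodes the peptide hormone cholecystokinin (chromosome 9, 121398943 to 121404807), had 4.13 and 6.19 FPKM with Cdk9-DN and 5.07 and 5.15 FPKM with the control vector at day 4. Its day 3 values were 27.7 FPKM with Cdk9-DN and 23.3 FPKM with the control vector (difference -2.11, SE 0.165, adjusted p = 0.00873). Neither gene's day 4 range came near its day 3 values.

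The other genes among the 12 lowest fell by 1.36 to 1.55 on the log2 scale, apart from Oip5. Nqo1, a quinone reductase induced by oxidative stress, Twist2 and Fosl1 are taken up below with their groups. Emilin2, a matrix glycoprotein, had 4.48 to 4.99 FPKM at day 4, against 12.9 and 15.0 FPKM at day 3. Lyz2, a lysozyme best known from macrophages, had 1.84 to 2.58 FPKM at day 4, against 7.42 and 9.21 FPKM at day 3. Krt20, an intestinal keratin, Lce1h, of the skin's cornified envelope, and S100a7a, a calcium-binding protein of skin, were all low, at no more than 9.07 FPKM in any of the 6 libraries. Oip5, a centromere assembly factor, was listed at 0 in the 3 day 4 libraries that list it, against 6.30 and 6.62 FPKM at day 3. No entry of the 6 libraries has a failed status, and no fold is given against values listed at 0 without read counts.

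**Figure D1:**
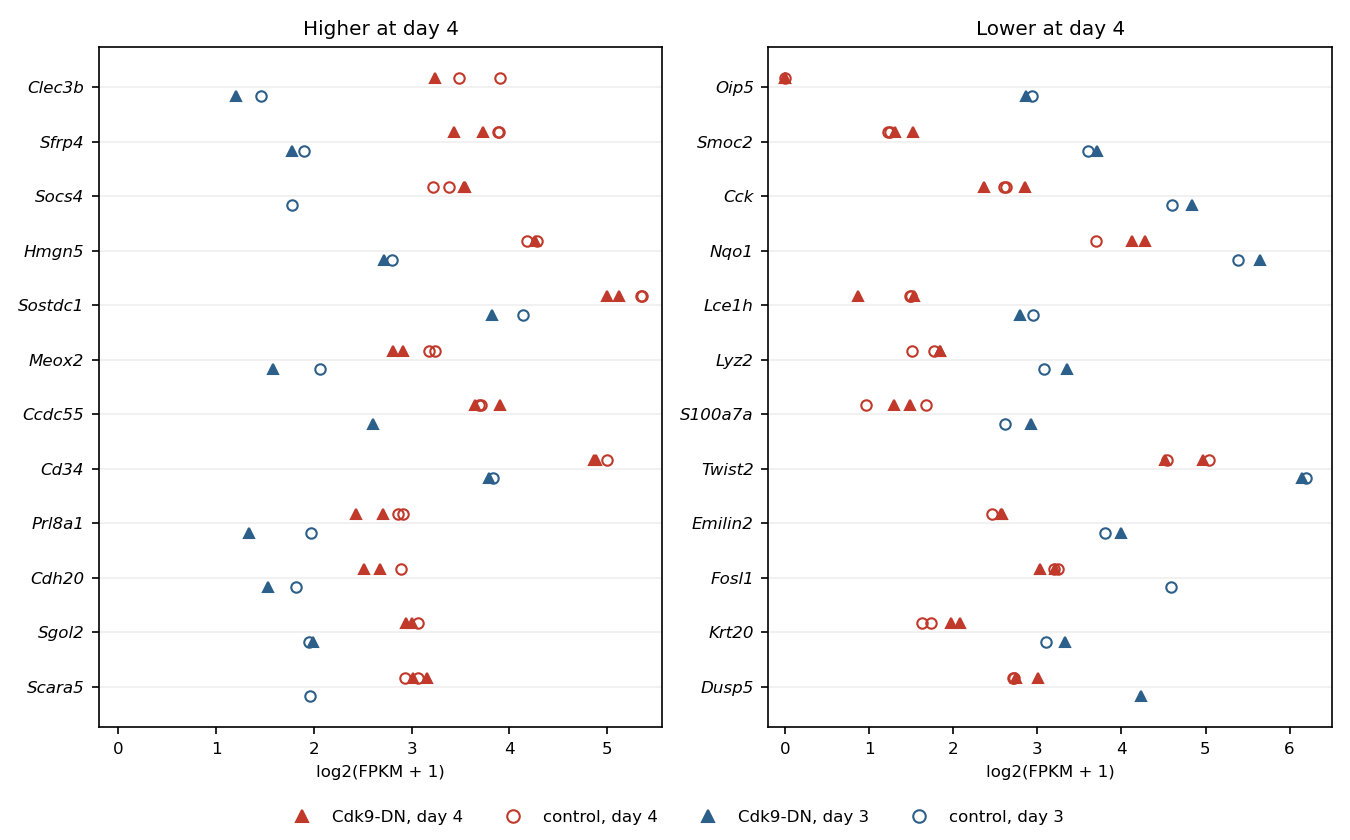
The log2(FPKM + 1) of the 12 highest and 12 lowest genes in each library, with Cdk9-DN as triangles and control as open circles. For every gene the red day 4 symbols lie on one side of the blue day 3 symbols, as with Clec3b (difference 2.15) and Smoc2 (difference -2.33). Socs4, Scara5, Ccdc55, Fosl1 and Dusp5 have 1 day 3 symbol each.

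Most genes changed in the same direction with both vectors. Of 4278 genes with a change in both vectors, 3339 had the same sign, and all 1011 called genes with values in both vectors did, which follows in part from pooling them. Over the 436 protein-coding genes with at least 10 FPKM, Pearson's r between the change with Cdk9-DN and the change with the control vector was 0.88. The difference between both changes was tested in all 14 libraries, and 5 of 4327 genes (0.116%) passed, 2 higher (0.0462%) and 3 lower (0.0693%). An unadjusted p under 0.05 was reached by 158 genes. Among the named genes, Id2 fell by 0.52 with Cdk9-DN and by 0.84 with the control vector, and Ankrd1 by 0.88 and 1.34, neither difference being among the 5. Hexim1, which encodes an inhibitor of the Cdk9 complex, had 10.5 FPKM in both Cdk9-DN libraries and 15.4 FPKM in 1 control library of day 4. At day 3 it had 10.9 FPKM with Cdk9-DN and 17.4 FPKM with the control vector. The Cdk9-DN libraries were below the control library on each day, and the day difference of -0.10 did not pass (adjusted p = 0.331). Of 4 pausing and elongation factors tested, 1 rose and 0 fell, against 9.28% and 13.8% of all genes tested. The 1 that rose was Larp7, part of the 7SK particle that holds the Cdk9 complex inactive (difference 0.43, adjusted p = 0.024).

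**Figure D2:**
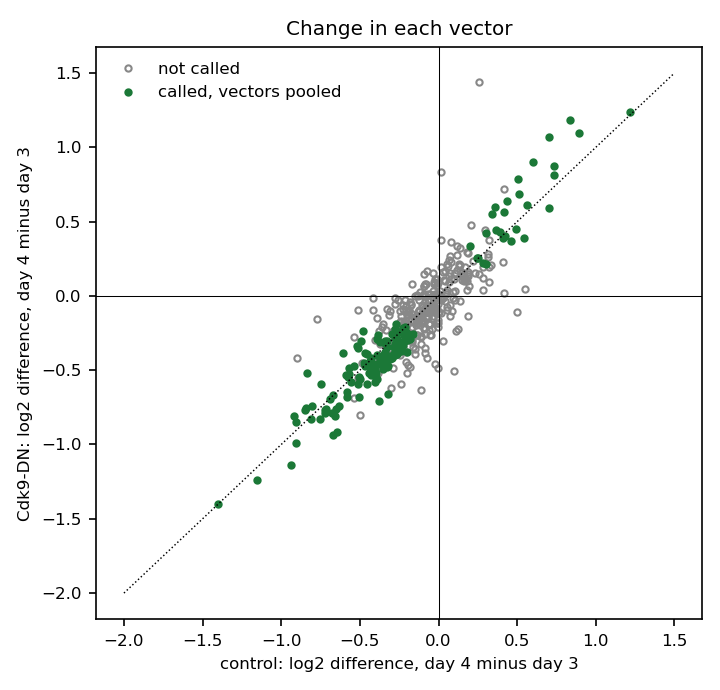
Each point is 1 of 436 protein-coding genes, with its log2 difference, day 4 minus day 3, in control cells on the x axis and in Cdk9-DN cells on the y axis. Green points were called with both vectors pooled; most points lie near the dotted line of equal change, with an r of 0.88.

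Immediate early genes formed the list with the most calls on the lower side. Of 40 genes 31 were listed and 17 tested, and 12 fell and 0 rose, with a median difference of -0.73 against -0.04 over all genes tested and 13.8% of all genes called lower. Egr1, a zinc-finger factor induced by growth factors, had 17.9 and 16.8 FPKM with Cdk9-DN and 17.4 and 16.5 FPKM with the control vector at day 4. At day 3 it had 42.3 FPKM with Cdk9-DN and 38.9 FPKM with the control vector. The 4 day 4 libraries agreed closely and stood well under both day 3 libraries (difference -1.20, SE 0.0534, adjusted p = 0.00462).

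Of the 6 genes of the Jun and Fos families tested, Jun, Junb, Fosl1 and Fosl2 fell. Jun had 39.0 to 41.0 FPKM at day 4, against 65.7 and 69.5 FPKM at day 3 (difference -0.74, adjusted p = 0.0063). Junb had 57.3 to 65.5 FPKM at day 4, against 93.2 and 108 FPKM at day 3 (difference -0.73, adjusted p = 0.00979). Both genes were lower in every day 4 library than in either day 3 library. Fosl1, which encodes the AP-1 subunit Fra-1, had 7.14 to 8.48 FPKM at day 4 and 23.1 FPKM in the 1 day 3 library that lists it (difference -1.37, adjusted p = 0.0165). Fosl2 fell by 0.70, Maff, a related basic leucine zipper factor, by 0.80, Ier5 by 0.79 and Rhob, a small GTPase, by 0.80. Jund (-0.37), Fosb (-0.26), Klf6 (-0.28), Zfp36 (-0.23) and Btg2 (0.04) did not pass.

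Dusp5, which encodes a nuclear phosphatase of the kinase ERK (chromosome 19, 53603599 to 53616921), had 7.05 and 5.68 FPKM with Cdk9-DN and 5.57 and 5.52 FPKM with the control vector at day 4. The 1 day 3 library that lists it had 17.8 FPKM (difference -1.36, SE 0.156, adjusted p = 0.0226). Promoters were found for 8 of the 12 immediate early genes that fell, and the rest were not searched. That of Dusp5 is shown because it alone of the 8 holds a CArG box, the site of serum response factor. Over the 13 promoters found for the 17 genes tested there were 2 with a CArG box, against 1.4% of 27025 promoters. The 250 bases before the start of Dusp5 (RefSeq, GRCm38.p6, plus strand, chr19:53528895-53529144) are printed 5′ to 3′, with 2 CArG boxes that touch each other in capitals, at -82 to -73 and -72 to -63 counted from the base before the start.

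Dusp5: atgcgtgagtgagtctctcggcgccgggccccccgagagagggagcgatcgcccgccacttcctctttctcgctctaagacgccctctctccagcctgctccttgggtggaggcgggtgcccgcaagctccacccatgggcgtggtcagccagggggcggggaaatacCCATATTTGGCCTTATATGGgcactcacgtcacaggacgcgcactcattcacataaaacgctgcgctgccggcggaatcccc

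A match of letters is a description and not a shown site of binding. The AP-1 motif TGANTCA, searched on both strands, was in 0 of these 13 promoters and in 6.87% of all 27025.

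Genes of the TGF-beta and YAP response were also lower. Of 24 genes 11 were listed and 6 tested, and 5 fell and 0 rose, with a median difference of -0.65. The share called lower over all genes tested was 13.8%. Ctgf, a matricellular protein and classic YAP target (chromosome 10, 24315248 to 24318489), had 192 and 191 FPKM with Cdk9-DN and 172 and 173 FPKM with the control vector at day 4. The 1 day 3 library that lists it, with the control vector, had 395 FPKM. Each day 4 value was under that of day 3. The difference of -1.19 is the change with the control vector alone, since day 3 has no Cdk9-DN value. Ankrd1, a nuclear and sarcomeric cofactor also driven by YAP (chromosome 19, 36186455 to 36194334), had 10.5 and 7.97 FPKM with Cdk9-DN and 8.33 and 7.70 FPKM with the control vector at day 4, against 17.7 and 21.8 FPKM in the Cdk9-DN and control libraries of day 3. Its difference was -1.11 (SE 0.163, adjusted p = 0.0207). Id2 and Id4, inhibitors of basic helix-loop-helix factors, fell by 0.68 and 0.59, and Tgfbi, a matrix adhesion protein, by 0.62. Bmp4, a ligand of the same superfamily, did not pass (0.16, adjusted p = 0.637). Cyr61, a relative of Ctgf, was listed in too few libraries to be tested and had 158 to 199 FPKM in 3 day 4 libraries and 315 FPKM in the control library of day 3.

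The promoter of Ankrd1 is shown as the one, among those found for the genes that fell, with 2 copies of the TEAD motif GGAATG. No promoter was found for Ctgf, which was therefore not searched. That motif, on either strand, was in 2 of the 4 promoters found for the genes that fell (Ankrd1 and Id4) and in 12.63% of 27025 promoters. The 250 bases before the start of Ankrd1 (RefSeq, GRCm38.p6, minus strand, chr19:36119845-36120094) carry it in capitals at -210 to -205 and at -123 to -118.

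Ankrd1: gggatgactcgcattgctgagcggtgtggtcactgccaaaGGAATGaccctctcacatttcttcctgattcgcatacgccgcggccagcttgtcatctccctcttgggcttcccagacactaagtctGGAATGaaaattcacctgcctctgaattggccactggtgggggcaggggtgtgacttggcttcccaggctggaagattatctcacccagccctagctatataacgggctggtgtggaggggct

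Among mesenchymal regulators, 5 of 28 genes were tested, of which 2 fell and 1 rose. Over all genes tested, 13.8% were called lower and 9.28% higher. Twist2, a basic helix-loop-helix repressor of epithelial genes (chromosome 1, 93698038 to 93744605), had 30.3 and 21.8 FPKM with Cdk9-DN and 32.0 and 22.2 FPKM with the control vector at day 4. It had 69.7 FPKM with Cdk9-DN and 72.2 FPKM with the control vector at day 3, more than in any day 4 library (difference -1.40, SE 0.205, adjusted p = 0.0207). Snai1, which represses E-cadherin (chromosome 2, 167363695 to 167368314), had 13.5 and 16.9 FPKM with Cdk9-DN and 17.8 and 16.3 FPKM with the control vector at day 4, against 34.4 and 33.6 FPKM in the Cdk9-DN and control libraries of day 3. The difference was -1.04 (SE 0.113, adjusted p = 0.0131), with no overlap. The relatives Twist1 (-0.31) and Snai2 (-0.29) did not pass, and Meox2 was the member that rose.

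The epithelial list split. Of 35 genes 21 were listed and 5 tested, and 3 rose and 2 fell, against 9.28% higher and 13.8% lower over all genes tested. Krt8, a keratin of simple epithelia (chromosome 15, 101827142 to 101834773), had 4.70 and 5.9996 FPKM with Cdk9-DN and 6.93 and 7.19 FPKM with the control vector at day 4. At day 3 it had 3.03 FPKM with Cdk9-DN and 3.49 FPKM with the control vector, and the difference was 0.75 (SE 0.118, adjusted p = 0.024). Cldn3, a tight junction claudin, had 2.003 to 2.14 FPKM at day 4, against 0.583 and 0.799 FPKM at day 3 (difference 0.87, adjusted p = 0.0128). Perp, a desmosomal protein, rose by 0.40. Krt18, the usual filament partner of Krt8, went the other way, with 0.426 to 0.795 FPKM at day 4, against 2.05 and 2.11 FPKM at day 3 (difference -0.91, adjusted p = 0.0199). Cdh3, P-cadherin, fell by 0.67. Elf3, Tjp3 and Prss8 were listed at 0 in all 6 libraries and Epcam did not exceed 0.737 FPKM.

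Of 38 pluripotency genes 24 were listed and 4 tested, and limma called 0, with 3 at an unadjusted p under 0.05. With protein-coding genes fitted alone, Sox2 and Fgf4 were called higher and Klf2 lower, and with the GC trend also removed, as described below, Sox2 and Fgf4 were called higher. Sox2 had 291 and 337 FPKM with Cdk9-DN and 373 and 367 FPKM with the control vector at day 4, against 258 FPKM in the control library of day 3 (difference 0.52, adjusted p = 0.0646). Myc was listed with 601 and 600 FPKM in the control libraries of day 4, against 397 FPKM in the Cdk9-DN and 409 FPKM in the control library of day 3, and could not be tested. Transduced and endogenous transcripts of both genes are not separated. Nanog did not exceed 1.08 FPKM, and Dppa3, Tcl1 and Prdm14 were listed at 0 in all 6 libraries. Some untested genes moved at values near the floor. Fbxo15 had 0.351 to 0.709 FPKM at day 4, against 0.0636 and 0.187 FPKM at day 3. Gdf3 had 0.413 to 0.613 FPKM, against 0.136 and 0.203 FPKM. Nr0b1 went the other way, from 0.0851 and 0.0478 FPKM at day 3 to 0 at day 4.

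Fibroblast matrix genes went both ways: of 6 tested, 2 rose and 2 fell. The shares over all genes tested were 9.28% higher and 13.8% lower. Mgp, an inhibitor of calcification, had 72.4 and 79.0 FPKM with Cdk9-DN and 99.4 and 93.2 FPKM with the control vector at day 4, against 145 and 154 FPKM in the Cdk9-DN and control libraries of day 3 (difference -0.80, adjusted p = 0.0124). Mmp3, a matrix protease, had 0.0271 to 0.142 FPKM at day 4, against 2.09 and 2.70 FPKM at day 3 (difference -1.61). Dcn, the collagen-binding proteoglycan decorin, had 15.1 to 16.1 FPKM at day 4, against 8.54 and 8.67 FPKM at day 3 (difference 0.79, adjusted p = 0.00847). Sfrp1, another secreted Wnt antagonist, had 13.8 to 17.7 FPKM at day 4, against 8.59 and 9.83 FPKM at day 3 (difference 0.67).

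Of 13 Wnt pathway genes tested, 4 rose and 3 fell, against 9.28% and 13.8% of all genes tested. Besides Sfrp4 and Sfrp1, Dkk2, a secreted modulator of the Wnt coreceptor, rose by 0.87 and the receptor Fzd5 by 0.45, a call that ended under quantile normalization. Sfrp2 (0.20) did not pass. Dkk1 and Dkk3, which were not tested, were lower at day 4 where listed. Dkk1 had 0.0706 to 0.276 FPKM at day 4, against 0.506 and 0.496 FPKM in the Cdk9-DN and control libraries of day 3. Dkk3 had 3.87 and 4.47 FPKM in 1 Cdk9-DN and 1 control library of day 4, against 4.79 FPKM in the Cdk9-DN library of day 3. The receptors Fzd1 and Fzd2 and the ligand Wnt4 fell by 0.30, 0.32 and 0.35, and these 3 calls ended when the trend with GC content, given below, was removed.

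**Figure D3:**
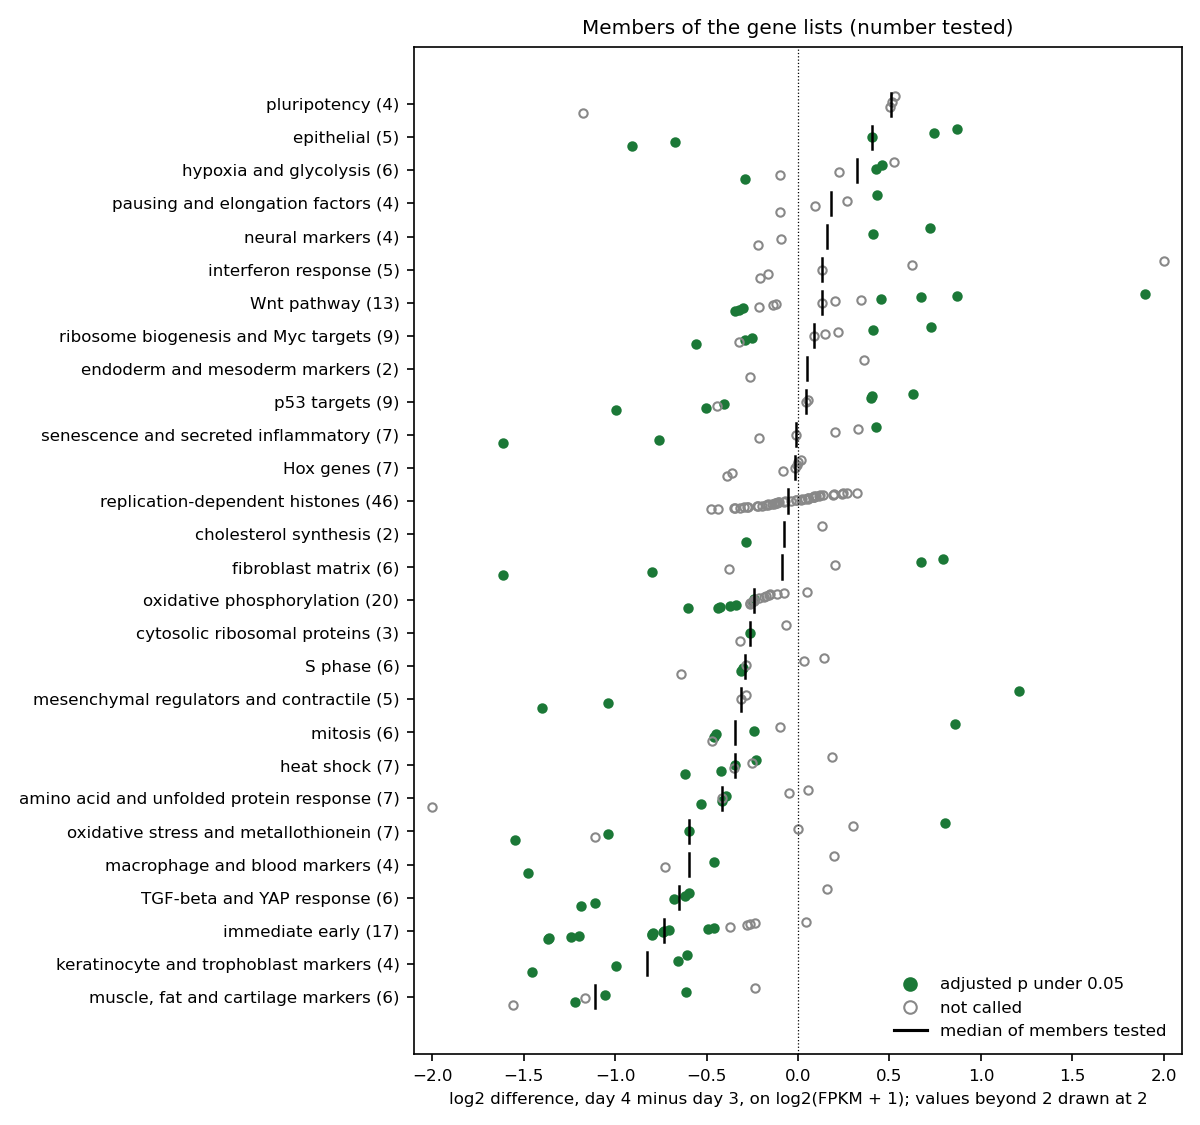
Every tested member of each gene list at its log2 difference, day 4 minus day 3, with called genes filled and a bar at the median of the members tested. The 17 immediate early genes have a median of -0.73 and the 6 genes of the TGF-beta and YAP response one of -0.65; values beyond 2 are drawn at 2.

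Among genes of stress responses, Nqo1 (chromosome 8, 109912125 to 109927106) had 18.5 and 16.5 FPKM with Cdk9-DN and 11.99 FPKM in 1 control library of day 4, against 49.2 and 40.8 FPKM in the Cdk9-DN and control libraries of day 3. It fell by 1.55 (SE 0.0968, adjusted p = 0.0111). Gsta1, a glutathione transferase, fell by 1.04 and Fth1, the ferritin heavy chain, by 0.59, while the metallothionein Mt2 rose by 0.80. Together the oxidative stress and metallothionein list had 1 gene higher and 3 lower of 7 tested, against 9.28% and 13.8% of all genes tested.

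Of 7 heat shock genes tested 4 fell and 0 rose, while 13.8% of all genes tested were called lower and 9.28% higher. The cochaperone Bag3 had 33.1 to 36.6 FPKM at day 4, against 52.9 and 57.3 FPKM at day 3 (difference -0.62), and Dnajb1 fell by 0.42, Hspa1a by 0.35 and Hspb8 by 0.23. Hspa1a and Hspa1b are near-identical copies, so the split of reads between them is uncertain. The amino acid and unfolded protein response had 3 lower of 7 tested, led by Creld2, a factor of the endoplasmic reticulum (difference -0.53). Egln3 and Mxi1, targets of the hypoxia response, rose by 0.42 and 0.46 and the glycolytic enzyme Pgam1 fell by 0.29, and under quantile normalization all 3 calls ended. Of 20 genes of oxidative phosphorylation 7 fell and 0 rose, with Cox6a1 at -0.60, Ndufb6 at -0.44 and Ndufa8 at -0.37, and 3 fell under quantile normalization. Cox6a1, which 1 day 3 library lists, was not among those 3 (adjusted p = 0.0977). With protein-coding genes fitted alone 11 of the 20 were called lower, against 23.7% of all genes in that fit. In the p53 list 3 of 9 rose and 3 fell, among them Sesn1 higher by 0.63 and Plk2 lower by 0.51.

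Of the proliferation genes, the replication helicase genes Mcm3 and Mcm2 fell by 0.31 and 0.30, the 2 called among 6 S phase genes tested. For the counts in this paragraph, the shares over all genes tested were 9.28% higher and 13.8% lower. Mcm2 had 45.0 to 49.7 FPKM at day 4, against 57.8 and 58.9 FPKM at day 3. Of 6 mitosis genes, Birc5 (-0.46), the kinase Plk1 (-0.45) and Ube2c (-0.24) fell. Ube2c overlapped between the days, with 153.6 FPKM in 1 control library of day 4 and 153.2 FPKM in the Cdk9-DN library of day 3. Its call ended under quantile normalization. The spindle motor Kif11 rose instead, with 14.1 to 16.4 FPKM at day 4, against 7.90 and 8.45 FPKM at day 3 (difference 0.86, adjusted p = 0.0175). Of 46 replication-dependent histone genes tested limma called 0 (5 at an unadjusted p under 0.05), at a median of -0.06, and quantile normalization called 2 lower. Of the 37 among the protein-coding genes fitted alone, 3 were called lower, and with the GC trend removed 3 others were called higher and 0 lower, at a median of 0.05. Histone genes are near-identical copies whose reads may be shared. Ribosome biogenesis genes split 2 higher (Ddx10 by 0.73, Wdr43 by 0.41) and 3 lower (led by Nhp2, -0.56) of 9. Of 3 cytosolic ribosomal protein genes tested, Rpl38 fell by 0.26 and the others did not pass. The senescence and secreted inflammatory list had 1 higher (Cdkn1b, 0.43) and 2 lower (Mmp3 and Mmp13) of 7. Limma called 0 of 7 Hox genes and 0 of 5 interferon response genes tested, with 0 and 0 at an unadjusted p under 0.05. With protein-coding genes fitted alone these counts stayed at 0, and with the GC trend removed Bst2 was called higher and B2m lower.

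Markers of other cell types also moved with the day, and their part in the results above was not tested. Keratinocyte and trophoblast markers fell in 4 of 4 tested (Prl2c2, Sfn, Krt6a and Krt14), against 13.8% of all genes tested. Krt6a overlapped between the days, with 6.13 and 6.16 FPKM with Cdk9-DN at day 4 and 4.77 FPKM in the control library of day 3. Krt14 was listed in 1 day 3 library, at 16.6 FPKM with Cdk9-DN. Summed over the 14 members listed in all 6 libraries, the markers of this list reached 10.3 to 15.1 FPKM at day 4 and 22.3 to 30.3 FPKM at day 3. Cdx2, Krt4 and Tpbpa were listed at 0. Prl2c2 belongs to a family of close copies, and its reads may be shared.

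Muscle, fat and cartilage markers fell in 3 of 6 tested, against 13.8% of all genes: the fat regulators Pparg (-1.22) and Cebpa (-0.61) and the cartilage proteoglycan Acan (-1.05). Pparg had 0.573 to 0.773 FPKM at day 4, against 2.85 and 2.92 FPKM at day 3. Their sum over 13 listed members was 3.60 to 4.53 FPKM at day 4 and 10.7 to 12.1 FPKM at day 3, with Myog, Myf5 and Myf6 at 0. Macrophage and blood markers fell in 2 of 4 tested (Lyz2 and Cd14) and summed to 17.9 to 23.2 FPKM at day 4 and 25.4 to 27.1 FPKM at day 3 over 12 members, with Gata1 and Tal1 at 0 where listed. Neural markers rose in 2 of 4 (Insm1 by 0.72 and Nefl by 0.41), against 9.28% of all genes tested. Their sum over 11 members, 30.7 to 37.1 FPKM at day 4, overlapped that of day 3, 32.5 to 35.3 FPKM. Quantile normalization ended both neural calls. Of 2 endoderm and mesoderm markers tested limma called 0 (2 at an unadjusted p under 0.05), and 0 endothelial markers could be tested.

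Libraries of days 5 and 10, which the comparison above does not use, show where these levels went. Twist2 went on down, to 17.6 and 18.2 FPKM with Cdk9-DN at day 5 and 6.25 and 5.50 FPKM at day 10, with control values of 17.4 FPKM in 1 library and then 2.68 and 4.13 FPKM. Ctgf had 90.4 and 93.7 FPKM with Cdk9-DN and 78.6 and 75.0 FPKM with the control vector at day 5. At day 10 it was back at 196 and 193 FPKM with Cdk9-DN and at 376 FPKM in 1 control library. Krt8 reached 97.9 and 98.2 FPKM with Cdk9-DN and 189 FPKM in 1 control library at day 10, and Krt18, lower at day 4, reached 7.10 and 6.31 FPKM with Cdk9-DN and 86.6 and 83.8 FPKM with the control vector. Sostdc1, which had risen, fell by 2.27 between days 5 and 10, and Sfrp4 by 1.36.

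Of 5784 genes tested for day 10 minus day 5, 2308 (39.9%) were called, 24.6% higher and 15.3% lower. Median-of-ratios scaling split the calls into 1214 higher and 1167 lower. Among 577 genes that were lower at day 4 and tested later, 41.9% were higher at day 10 than at day 5 and 18.7% lower. Among 387 genes that were higher at day 4, 16.3% were higher at day 10 and 22.7% lower. Genes not called at day 4 had shares of 20.3% and 14.6%. These shares are descriptions of separate libraries, with no test. Immediate early genes, down at day 4, had 3 called higher and 4 called lower of 14 tested between days 5 and 10. The 5 mesenchymal genes tested were all lower at day 10 than at day 5.

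**Figure D4:**
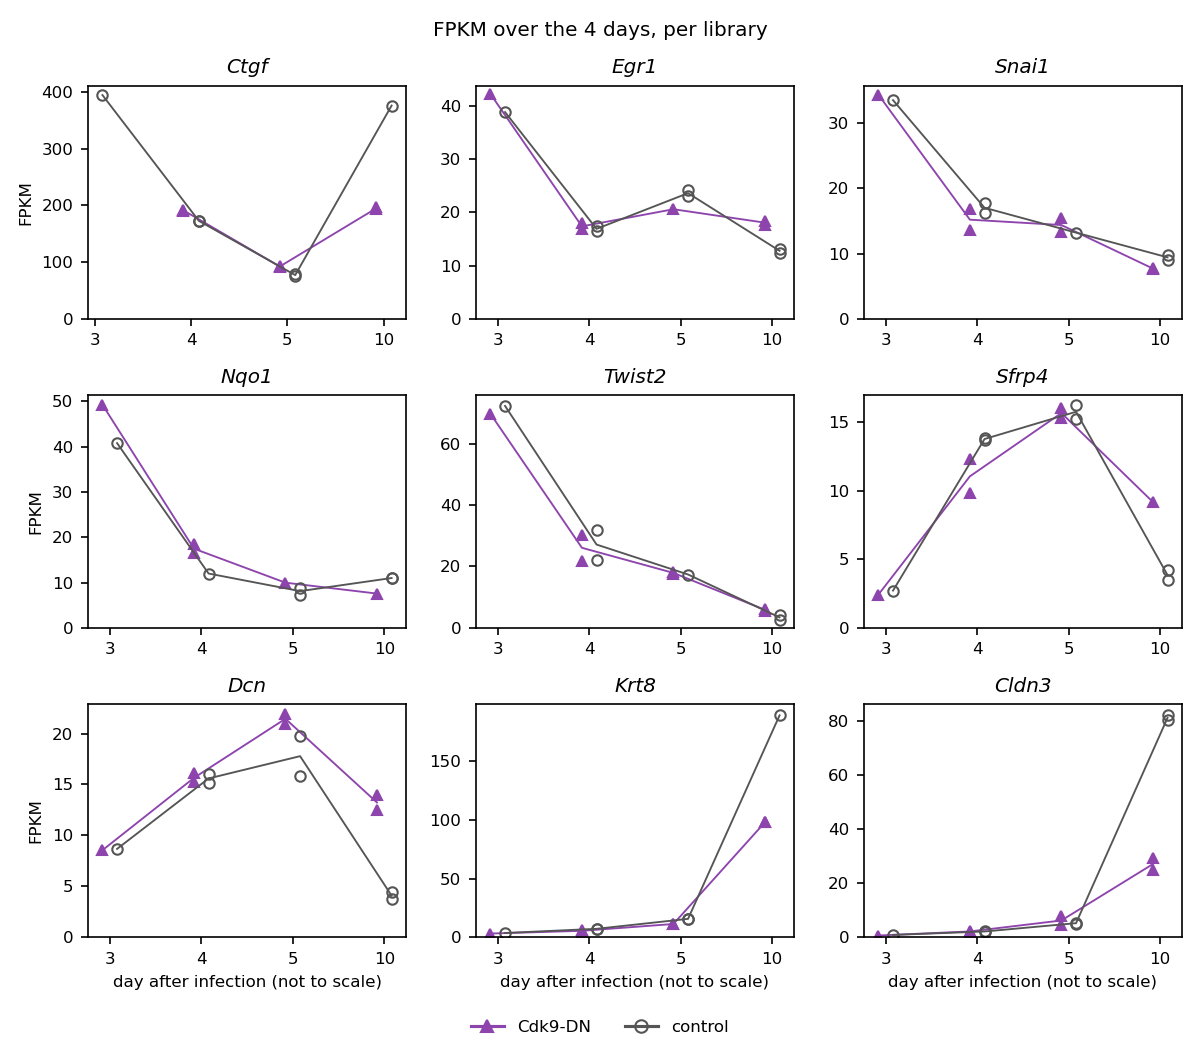
FPKM of 9 genes in each library at days 3, 4, 5 and 10, with lines through the group means. Ctgf is lower at days 4 and 5 and higher again at day 10, Twist2 goes down throughout, and Sfrp4, at 2.42 and 2.72 FPKM on day 3, is at 9.80 or more on days 4 and 5.

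Base composition moved with the day over the whole table. With the 1916 protein-coding genes tested fitted alone, 784 were called (40.9%), 329 higher (17.2%) and 455 lower (23.7%). Over these genes, Spearman's rho between the log2 difference and the GC content of the longest transcript was -0.42, and with transcript length it was 0.28. Within libraries, the rank correlation of GC content with the level of a gene, relative to its mean over all libraries that list it, was -0.26 to 0.01 at day 4 and 0.31 and 0.34 at day 3. In the quintile of genes lowest in GC, 32.5% to 43.6%, 159 were called higher and 30 lower at day 4 in that fit. In the highest quintile, 55.7% to 72.8%, 25 were higher and 150 lower. Whether the libraries or the cells differed in this way cannot be told apart from the day.

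With the GC trend removed from each library, a setting chosen after seeing the data, 673 of the protein-coding genes were called (35.1%), 280 higher (14.6%) and 393 lower (20.5%). Of the 329 called higher in the same genes before, 227 were still called higher, and of the 455 called lower, 312. The lowest quintile then had 77 higher and 91 lower genes and the highest quintile 50 and 85. Immediate early genes, whose median GC content was 56.1%, then had 14 lower and 0 higher of 17, against 12 and 0 in the fit of protein-coding genes without this step. Their median difference was then -0.56, closer to 0 than before. The 5 calls of the TGF-beta and YAP response, of Twist2 and Snai1, and of Krt8 and Cldn3 were kept. Dcn stayed higher but by 0.26. The calls of Ube2c, Hspa1a, Hspb8, Chac1, Rrs1 and Rpl38 were among those that ended.

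**Figure D5:**
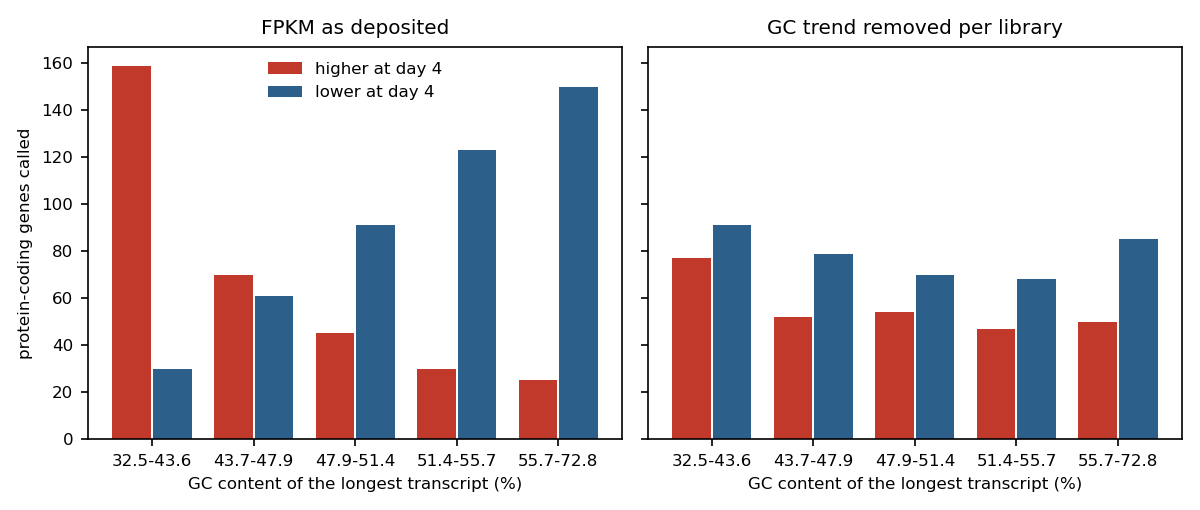
Protein-coding genes called higher (red) and lower (blue) at day 4 in quintiles of GC content, fitted alone, with FPKM as deposited on the left and with the GC trend removed from each library on the right. On the left the lowest quintile holds 159 higher and 30 lower genes, and on the right 77 and 91.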

How the data were processed

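The deposited tables hold FPKM values of the authors per gene and library, each with bounds. CASAVA 1.8.2, TopHat2 2.0.10 and Cufflinks 2.2.1 were used on mm9 (NCBIM37), per the submitters' processing notes. Read counts were not used here. Entries of 16 identifiers with several entries were summed. GENCODE M21, which held 83.5% of the identifiers, gave gene types, GC content and transcript length, and RefSeq (GRCm38.p6) the promoters.

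Genes were fitted as log2(FPKM + 1) with day and vector as terms, using the libraries with a value, a minimum of 2 residual degrees of freedom and limma 3.58.1 (R 4.3.3) moderation with an intensity trend, giving 1.22 prior degrees of freedom. P-values are two-sided, with Benjamini-Hochberg adjustment over all genes tested. The difference between vectors used 8 group means of 14 libraries, with single day 3 libraries assumed to vary like the replicates. Depth was derived from the bounds, on the untested assumption that they hold counting error only. The fit was tested on simulated data.

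Named genes were the 12 highest and 12 lowest called without overlap and at least 5 FPKM on a day, without unnamed models, small RNAs and pseudogenes, up to 4 called members per list (or 2 of highest mean), and 15 genes of prior interest; others were chosen after their values were seen, namely Jun, Junb, Cyr61, Fosl2, Maff, Ier5, Rhob and the members given with their values as not passing. Members and lists were chosen with earlier results of these data known. Alternatives were pseudocount, filter, scaling, gene set, samples, variance trend, replicate block, left-out libraries and, added later, trends with GC content and length.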

Additional observations from a re-analysis of the deposited data

Results flagged for a closer look

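In 5 genes the change from day 3 to day 4 differed between the vectors (limma, 14 libraries), with 1 day 3 library per vector behind each. Asrgl1, an asparaginase, had 5.97 and 5.11 FPKM with Cdk9-DN and 5.31 and 5.07 FPKM with the control vector at day 4. At day 3 it had 24.0 FPKM with Cdk9-DN and 4.83 FPKM with the control vector, so the Cdk9-DN change minus the control change was -2.03 (adjusted p = 0.0182). Txnl4b, a thioredoxin-like protein, was listed at 0 in the Cdk9-DN library of day 3 and at 3.84 to 4.66 FPKM in the other 5, a difference of 2.34 (adjusted p = 0.0182). The snoRNA gene SNORA35 (difference -4.03) was listed at 0 in both Cdk9-DN libraries of day 4 and in both day 3 libraries, with 17.0 and 13.8 FPKM in the control libraries of day 4. The miRNA gene AL732400.1 (-10.03) was listed at 0 in the control library of day 3 and at 567 to 1391 FPKM elsewhere. The antisense gene Gm17035 (3.60) was listed at 0 in the Cdk9-DN library of day 3 and at 9.08 to 13.1 FPKM elsewhere. No entry of the 6 libraries has a failed status, and the zeros are given as listed. With the 6 libraries of days 3 and 4 alone, 0 genes passed, and 158 had an unadjusted p under 0.05.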

How the results depend on the processing

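The day 4 minus day 3 call count of 1060 came to 544 with no filter on low values (10138 genes tested), to 673 with the GC trend and 611 with the GC and length trends removed (1916 protein-coding genes, of which 784 were called without these steps), and to 0 to 323 with 1 library left out. The day 4 libraries gave 233 to 323, and 0 and 4 remained without a day 3 library. A left-out library also takes residual degrees of freedom. With the number of the day 4 libraries as a replicate block, 694 of 3631 genes were called, against 818 of the same 3631 without it. Deviations of same-numbered day 4 libraries correlated at 0.275 over 436 genes, but only 2 pairs exist and the labels do not say what a number shares. The other settings (pseudocount, stricter filter, scaling, genes fitted, 14 libraries, variance trend) gave 784 to 1325. No named gene reversed in any setting. Of 86 named called genes, 75 kept their call under quantile normalization, 79 with the GC trend removed, 58 without the filter, 48 of 57 with the block, 28 to 36 of the 60 to 64 testable without 1 day 4 library, and 0 of the 53 or 54 testable without a day 3 library. The difference between vectors called 5 genes, 8 with pseudocount 0.1, 153 with no filter, 0 with 6 libraries and 5 to 12 with a day 4 library left out. Day 10 minus day 5 stayed at 1763 to 2535 calls. Genes that libraries do not list, and the single day 3 libraries per vector, limit what could be tested.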

Other observations

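Gene families by symbol with at least 10 members tested, a grouping made after the values were seen, gave further values. Of 48 genes named Zfp, mostly zinc finger factors, 17 rose and 1 fell at day 4, with a median difference of 0.39 against -0.07 over protein-coding genes. Over all genes tested 9.28% were called higher and 13.8% lower, and over protein-coding genes fitted alone 17.2% and 23.7%. The median GC content of the Zfp genes was 44.5%. In the fit of protein-coding genes 20 of 45 Zfp genes were higher and 3 lower at a median of 0.40. With the GC trend removed 13 were higher and 3 lower at a median of 0.23. Of 16 genes named Rpl, which include pseudogenes of ribosomal proteins, 8 fell and 0 rose, and of 10 named Rps 5 fell and 0 rose. In the fit of protein-coding genes, 3 of 6 Rpl and 1 of 2 Rps genes were lower, and with the GC trend removed 2 of 6 and 1 of 2.

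By gene type, the balance differed in the same libraries, where 9.28% of all genes tested were called higher and 13.8% lower. Of 1443 pseudogenes tested 248 fell and 91 rose. Of 393 small RNA genes 26 rose and 10 fell, and of 137 long non-coding genes 21 rose and 10 fell. Small RNA genes were thus called less often in either direction than all genes tested. Among 712 identifiers absent from the annotation used here, 82 rose and 58 fell. Ifitm1, a gene of the interferon response, was listed at 40.8 FPKM in 1 and 0 in the other Cdk9-DN library and at 61.1 FPKM in 1 control library of day 4, and at 0 in both day 3 libraries. Cebpb, a factor of the amino acid and stress response, was listed at 0 in the 2 day 4 libraries numbered 2 and at 24.3 FPKM with Cdk9-DN and 28.1 FPKM with the control vector in those numbered 1, against 49.6 and 43.2 FPKM in the Cdk9-DN and control libraries of day 3. Neither gene was called.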
